A study of Mus musculus with 8 samples.

Results

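The replication-dependent histone genes of activated mouse CD8+ T cells were taken as every row of the deposited count table whose symbol follows the older mouse cluster naming (Hist, a cluster number, h and the histone type). This rule found 69 of 24976 gene rows, with 6 genes for the linker histone H1, 19 for H2A, 19 for H2B, 12 for H3 and 13 for H4. The rule used symbols only and no measured value. All 69 had at least 1 count, and 61 passed the filter on low counts and were tested.

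The study activated naive CD8+ T cells in culture with antibodies to CD3 and CD28 together with IL2, for 24 or 48 h, and sequenced RNA from the bulk culture. Cells came from wild-type littermates (WT) or from mice carrying Cd8Cre with floxed alleles of both Nr4a1 and Nr4a2, labelled NR4a double knockout (dKO below). Nr4a1 and Nr4a2 encode nuclear receptors that are switched on by T cell receptor signals, and the Cre is driven by Cd8 sequences, so it acts in CD8 lineage cells. Each of the 4 groups, WT 24 h, dKO 24 h, WT 48 h and dKO 48 h, had 2 libraries, and nothing in the labels says whether these came from separate animals, so the p-values below cover the spread of libraries, which may be technical.

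Replication-dependent histone genes supply the core histones H2A, H2B, H3 and H4 and the linker histone H1 that package newly copied DNA, and their transcripts accumulate in S phase. Most of these mRNAs end not in a poly(A) tail but in a conserved stem-loop that is bound by Slbp, while Npat activates their transcription downstream of cyclin E and Cdk2. Naive T cells are quiescent and enter rapid division after activation, which places these genes among the readouts of proliferation. A protocol that selects poly(A) tails recovers few of these transcripts, and the sources used here do not name the library kit.

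The genes lay on 4 chromosomes of GRCm38 (mm10). Chromosome 13 held 55 members, of which 54 filled a stretch of 2.22 Mb (chr13:21715763-23934851) and 1, Hist1h2al, was annotated as a processed pseudogene elsewhere on the chromosome. Chromosome 3 held 10 members, chromosome 11 held 3 and chromosome 6 held 1. The stem-loop was searched for in the annotated transcripts (GENCODE M21) and was found in 46 of 69 members, in 4 of 6 H1, 11 of 19 H2A, 10 of 19 H2B, 9 of 12 H3 and 12 of 13 H4 genes. One example of each type is shown, since the stem-loop is the feature that sets these mRNAs apart, with the 16 bases of the stem-loop in capitals and 5 flanking bases on each side.
Hist1h1e: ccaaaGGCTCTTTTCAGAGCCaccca
Hist1h2ao: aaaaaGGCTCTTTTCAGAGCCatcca
Hist1h2bj: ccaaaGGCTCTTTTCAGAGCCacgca
Hist1h3a: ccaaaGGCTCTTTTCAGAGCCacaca
Hist1h4i: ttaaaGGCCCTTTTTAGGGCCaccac

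The H1, H2A, H2B and H3 examples carried the same 16 bases, and the stem of the H4 example differed. Of the members with a stem-loop, the form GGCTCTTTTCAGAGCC was found in 3 H1, 10 H2A, 8 H2B and 5 H3 genes and in no H4 gene, whereas 7 H4 genes carried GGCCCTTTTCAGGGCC. The absence of a match says only that the stem-loop was not in the annotated transcript models.

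The transcripts also resembled each other along their length, which bears on how reads could be assigned to single genes. The share of a gene's 50-base stretches that also occur in another member had a median of 67.6% for H2A, 57.2% for H3, 40.1% for H2B, 39.5% for H4 and 1.1% for H1. For the pair Hist1h2ao and Hist1h2ap the shares were 93.5% and 93.1%, and for Hist2h2aa2 the share was 100%. The treatment of reads that fit several genes is not given, so values of single H2A and H3 genes are uncertain. Members of a type are not independent of each other. Sums over a type are less exposed to how reads were split among members. If such reads were dropped or counted more than once, the sums are affected too, and by type to the extent of the shares above.

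Promoter windows of 300 bases (250 before to 50 after the start, RefSeq, GRCm38.p6) were found for 62 members. Of these, 13 H2A and H2B windows, and no window of another type, held the octamer ATTTGCAT on either strand, which is 21% of the 62 against 1.74% of 32851 RefSeq windows of the same length. The CCAAT box (CCAAT or ATTGG) was in 85.5% of the windows against 37.4% of all, in every H1, H2A, H2B and H3 window and in 25% of the H4 windows. TATAAA was in 56.5% against 13.6%, and an E2F-type sequence (TTTCGCGC or TTTGGCGC, both strands) in 14.5% against 0.813%. Matches may overlap and are a description of letters, not of bound sites. Many of these windows are not independent, because 13 pairs of an H2A and an H2B gene lie head to head with their starts 173 to 306 bases apart. The windows of Hist1h2ag, whose start lies 270 bases from that of Hist1h2bj, and of Hist1h4i are shown because these genes recur in the results, with motif letters in capitals.
Hist1h2ag (chr13:22042900-22043199, minus strand): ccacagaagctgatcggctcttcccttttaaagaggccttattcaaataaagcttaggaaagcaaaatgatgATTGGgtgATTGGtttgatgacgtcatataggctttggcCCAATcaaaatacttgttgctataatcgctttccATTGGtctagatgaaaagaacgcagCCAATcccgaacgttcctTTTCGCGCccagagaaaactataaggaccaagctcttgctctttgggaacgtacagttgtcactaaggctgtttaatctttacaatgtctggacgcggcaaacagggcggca
Hist1h4i (chr13:22041313-22041612, minus strand): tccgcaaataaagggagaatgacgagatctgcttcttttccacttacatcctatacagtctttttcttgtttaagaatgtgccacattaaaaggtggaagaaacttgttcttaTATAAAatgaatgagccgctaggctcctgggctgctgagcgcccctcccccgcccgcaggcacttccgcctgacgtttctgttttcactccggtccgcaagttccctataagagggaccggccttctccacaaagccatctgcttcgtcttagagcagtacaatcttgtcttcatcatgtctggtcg

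The Hist1h2ag window held the CCAAT letters on both strands and 1 E2F-type match, and the Hist1h4i window held TATAAA and neither of these.

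Libraries held between 5000952 and 21686236 counts. The level of Nr4a1 in CPM, counts scaled to a common library total, was 322 to 542 in WT and 545 to 589 in dKO at 24 h, and 682 to 735 in WT and 613 to 651 in dKO at 48 h. Nr4a2 was at 57.5 to 61.7 CPM in WT and 146 to 157 CPM in dKO at 24 h, and at 20.5 to 29.1 and 72.9 to 75.2 CPM at 48 h. Neither targeted gene was low in the libraries labelled dKO, and which exons were floxed is not given, so the counts are no check of the deletion and "dKO" stands for the label throughout. Xist ranged over 323 to 805 CPM among WT libraries and 0.719 to 1.8 CPM among dKO libraries, and 4 Y-linked genes summed to 1.28 to 1.75 CPM in WT and 131 to 175 CPM in dKO, so genotype and the sex of the cells cannot be told apart. Cd8a was at 447 to 991 CPM in every library and Cd4 at 0.121 CPM at most. The summed CD8 T cell markers were 1750 to 1900 CPM in WT 24 h, 1490 to 1500 in dKO 24 h, 930 to 1120 in WT 48 h and 1350 to 1420 in dKO 48 h. Marker sums did not exceed 7.04 CPM for B cells, 3.74 for myeloid cells and 1.57 for red cells, with Lyz2, Hba-a1 and Hbb-bs at 0. NK cell markers (3 genes, Ncr1 at 0 in all libraries) summed to 8.58 to 11.9 CPM in WT 24 h, 20.1 to 26.8 in dKO 24 h, 14.2 to 20.1 in WT 48 h and 33.9 in both dKO 48 h libraries, so they moved with genotype. CD4 or regulatory T cell markers (4 genes) summed to 22 to 29.9, 19.9 to 20.4, 54.1 to 79.4 and 85 to 89 CPM in the same order. The part of these markers in the results below was not tested. The WT 48 h libraries stood apart from each other: their counts differed by a chi-square of 72 per degree of freedom, against 2.51 to 17.2 in the other groups, and the proliferation marker Mki67 was at 138 CPM in 1 of them and 485 CPM in the other.

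Summed over all 69 genes, histone transcripts were higher in dKO than in WT cells after 24 h and not after 48 h. They made up 0.0444% of counts (95% Wilson interval 0.0429% to 0.0460%) and 0.0452% (0.0436% to 0.0470%) in the WT 24 h libraries, and 0.0765% (0.0746% to 0.0784%) and 0.0795% (0.0771% to 0.0820%) in the dKO 24 h libraries. Both dKO libraries lay above both WT libraries. At 48 h the shares were 0.0729% (0.0709% to 0.0749%) and 0.0382% (0.0374% to 0.0391%) in WT and 0.0640% (0.0622% to 0.0660%) and 0.0652% (0.0635% to 0.0670%) in dKO, so the dKO libraries lay between the WT libraries. These intervals cover counting error only. In RNA from bulk cultures, fewer cells transcribing these genes and less RNA in each cell cannot be told apart.

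The H2A genes made up 53.0% to 78.2% of all histone counts in a library. On the scale of CPM after scaling by the trimmed mean of M-values (TMM), the summed H2A level was 218 ± 18.2 in WT 24 h, 420 ± 29.1 in dKO 24 h, 460 ± 316 in WT 48 h and 462 ± 6.03 in dKO 48 h (SD, n = 2 in each). The summed H3 level was 75.1 ± 3.04, 110 ± 0.213, 58.8 ± 7.43 and 59.5 ± 1.05, and the summed H2B level 51.4 ± 9.57, 80.9 ± 2.57, 46.7 ± 3.32 and 48.0 ± 1.97 (SD, n = 2 in each, same order). H1 genes summed to 32.4 ± 0.708, 52.7 ± 0.164, 51.9 ± 17.4 and 47.9 ± 4.53, and H4 genes to 31.9 ± 0.932, 51.9 ± 2.06, 37.6 ± 0.0264 and 49.3 ± 4.44 (SD, n = 2 in each, same order). For every type both dKO libraries lay above both WT libraries at 24 h, with ratios of the means from 1.46 for H3 to 1.93 for H2A. At 48 h the ratio of the means was 1.31 for H4, the type in which both dKO libraries again lay above both WT libraries, and 0.922 to 1.03 for the other types, whose libraries overlapped.

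**Figure D1:**
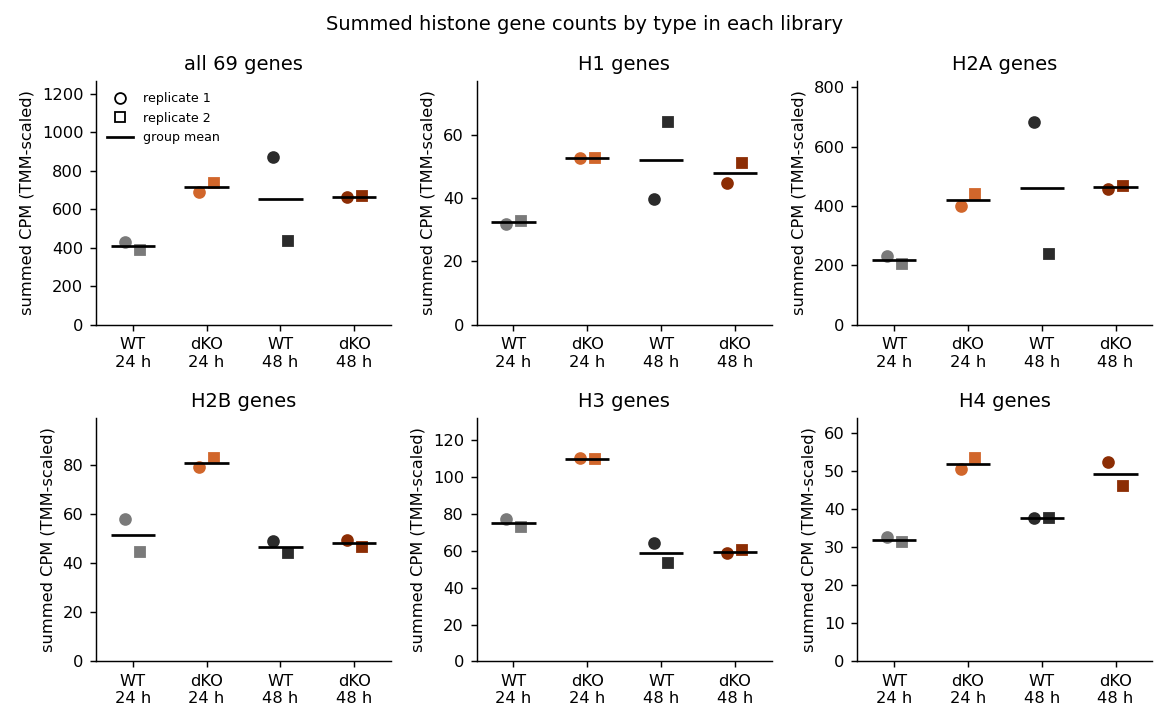
Summed CPM (TMM-scaled, vertical axis from 0) of all 69 histone genes and of each type, in the 4 groups (horizontal axis), with 1 symbol per library and a line at the group mean. At 24 h both dKO libraries lie above both WT libraries in each panel, and the WT 48 h libraries lie far apart for H2A, at 684 and 237.

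The WT 48 h libraries differed from each other in a way that depended on the histone type. Summed H2A was 2.89-fold higher in replicate 1 than in replicate 2, with 4002 and 4497 counts in libraries of 7018314 and 21686236 counts. Summed H1 was lower in replicate 1, at 0.617 of replicate 2, and H2B, H3 and H4 were at ratios of 1.11, 1.2 and 1.0. In the other 3 groups the higher library exceeded the lower by at most 1.3-fold for any type. Of 18 tested H2A genes, 15 were more than 2-fold higher in replicate 1, which is 83.3%, against 1 of 15 H2B genes, no gene of the other types and 4.48% of all genes tested. The median ratio was 2.71 for H2A genes, 1.02 for all genes tested and 0.664 for H1 genes, all 5 of which were lower in replicate 1. Replicate 1 was the library with the lower Mki67 level (138 CPM). Whether depth, Mki67 or how reads were assigned had a part in this difference was not tested, and every value below that uses WT 48 h rests on these 2 libraries.

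**Figure D2:**
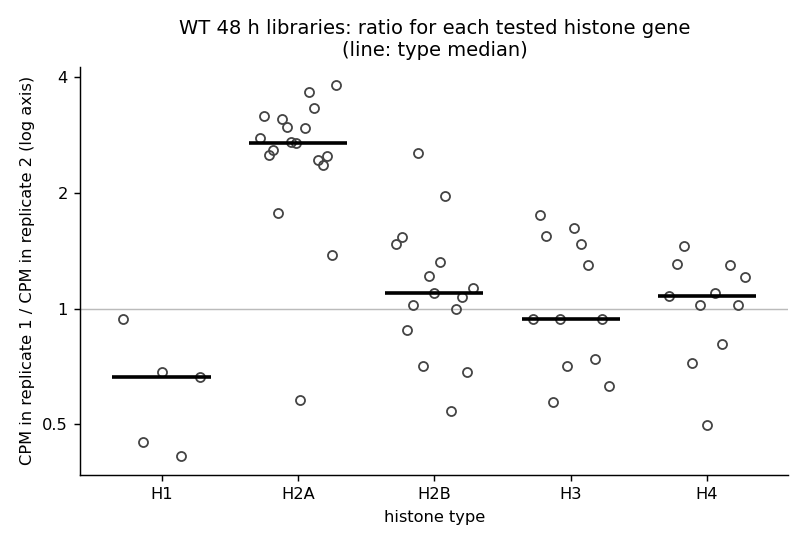
Ratio of TMM-scaled CPM in replicate 1 over replicate 2 of WT 48 h (vertical axis, log scale) for each of the 61 tested histone genes, by type (horizontal axis), with a line at the type median. H2A genes sit around a median of 2.71, and H1 genes all sit below 1.

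Per length of annotated exon, H2A genes held the most counts. The mean level over the 8 libraries, in CPM per kilobase of exon, had a median of 35.9 for H2A genes, 8.4 for H3, 5.3 for H4, 5.0 for H1 and 3.4 for H2B, and reached 119 for Hist1h2ao and 113 for Hist1h2ap. Whether reads cover whole transcripts or only their 5′ ends is not given, and a level per length would not apply to counts of 5′ ends. The lengths are those of annotated models, such as 7425 bases for Hist1h1d, 4446 for Hist1h2be and 480 for Hist1h2ao. How reads shared between members were counted is not given either. The order of the types may depend on both. Within a head-to-head pair, Hist1h2ag was at 91.0 and Hist1h2bj at 20.5 CPM per kilobase. The 8 members that were not tested held few counts over all 8 libraries together: Hist2h2bb had 60, Hist2h2be 49, Hist4h4 18, Hist3h2ba 17, Hist2h4 8, Hist1h2aa 3, the pseudogene Hist3h2bb-ps 3 and Hist1h1t, the testis H1, 2.

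The comparison of dKO with WT at 24 h asked whether histone transcripts differ in early activation between the genotypes. Of the 61 tested members, 58 were on the side of higher levels in dKO, with a median log2 fold change of 0.73 against 0.01 over all 12742 genes tested, and no member was called at an adjusted p of 0.05 (edgeR quasi-likelihood test, Benjamini-Hochberg over all genes tested). Among all genes 0.361% were called higher and 0.0706% lower. At an unadjusted p of 0.05, 28 members (45.9%) were higher and 0 lower, where 3.92% of all genes were higher. DESeq2 called 0 members, where it called 0.487% of all genes higher and 0.126% lower. In 49 members (80.3%) both dKO libraries lay above both WT libraries, against 24.3% of all genes tested, and in 1 member, the pseudogene Hist1h2al, both lay below. By type the median was 0.97 for H2A, 0.72 for H1, 0.70 for H4, 0.68 for H2B and 0.57 for H3. Mki67 moved the same way, at 116 to 130 CPM in WT 24 h and 176 to 187 CPM in dKO 24 h. Rrm2, a subunit of ribonucleotide reductase, was at 175.5 and 194 against 272.9 and 245.7 CPM. Neither Mki67 nor Rrm2 overlapped between genotypes. Rrm2 is 1 of 40 DNA replication genes followed below, whose median log2 fold change was 0.08 (range -0.315 to 0.49), so the list as a whole moved little. The part of proliferation in the histone result was not tested.

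The number called at 24 h moved with the filter and with the libraries in the fit. With no filter on low counts the 8 libraries gave 14 members called higher, where 0.635% of all genes were. Fitted on the 4 libraries of 24 h alone, 15 of 60 tested members were called higher and 0 lower, where 1.05% of all genes were called higher. Of these 15, 12 were H2A genes, 2 were H1 (Hist1h1b and Hist1h1e) and 1 was H3 (Hist1h3d). Leaving out WT 48 h replicate 1, or WT 48 h replicate 2, gave 16 members called higher (1.76% or 1.77% of all genes), and these 16 held all 15 of the 4-library fit. No member was called when a library of any other group was left out. The common dispersion was 0.0246 over 8 libraries, 0.0104 over the 24 h libraries, 0.0435 over the WT libraries and 0.00317 over the dKO libraries.

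Among single genes, Hist1h3d, which encodes histone H3, had the smallest p at 24 h. It was at 3.37 and 3.23 CPM in WT and at 7.77 and 8.74 CPM in dKO, with both dKO libraries well above both WT libraries. Its log2 fold change was 1.31 (SE 0.296, edgeR adjusted p = 0.144), and 1.28 (SE 0.236, adjusted p = 0.033) in the fit of the 4 libraries of 24 h. The next was Hist1h4a, an H4 gene, at 1.12 and 1.47 CPM in WT against 3.5 and 3.90 CPM in dKO, with a log2 fold change of 1.496 (SE 0.355, edgeR adjusted p = 0.165), which stayed uncalled in the 4-library fit (adjusted p = 0.0892). Hist1h1e, the leading H1 gene in these cells, was at 13.9 and 13.7 CPM in WT and 23.1 and 25.7 CPM in dKO. Its log2 fold change of 0.82 (SE 0.213, edgeR adjusted p = 0.218) became 0.79 (SE 0.142, adjusted p = 0.0293) with the 4 libraries of 24 h alone. None of these 3 genes had overlapping libraries at 24 h.

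The 3 leading H2A genes were close to 2-fold apart at 24 h. Hist1h2ao was at 30.4 and 28.9 CPM in WT and at 53.7 and 63.2 CPM in dKO, with a log2 fold change of 0.98 (SE 0.459, edgeR adjusted p = 0.744). Hist1h2ap was at 30.2 and 27.6 CPM in WT and at 57.7 and 56.3 CPM in dKO. Hist1h2ag was at 25.3 and 22.9 CPM in WT and at 46.1 and 50.2 CPM in dKO. The groups did not overlap for any of the 3, and most of their 50-base stretches are shared with other H2A genes, so they are not independent observations. In the fit of the 4 libraries of 24 h, Hist1h2ap had a log2 fold change of 0.96 (SE 0.112, adjusted p = 0.00365), Hist1h2ao 0.95 (SE 0.122, adjusted p = 0.00583) and Hist1h2ag 0.97 (SE 0.12, adjusted p = 0.00491).

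The leading genes of the other types gave smaller differences at 24 h. Hist1h2bj (H2B) was at 10.5 and 6.76 CPM in WT and 14.9 and 13.2 CPM in dKO, a log2 fold change of 0.70 (SE 0.246, edgeR adjusted p = 0.488), with no overlap. Hist1h2bp and Hist1h2bk, also H2B, were at 0.42 and 0.67 on the log2 scale, and Hist1h4d and Hist1h4b at 0.90 and 0.40. Hist1h3c and Hist1h3f were at 0.70 and 0.60, while Hist1h3a, another H3 gene of similar level, was at 16.4 and 14.0 CPM in WT and 14.4 and 15.99 CPM in dKO. Its libraries overlapped and its log2 fold change was -0.01 (SE 0.195), which sets it apart in value from most H3 genes, although that difference between genes was not tested.

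**Figure D3:**
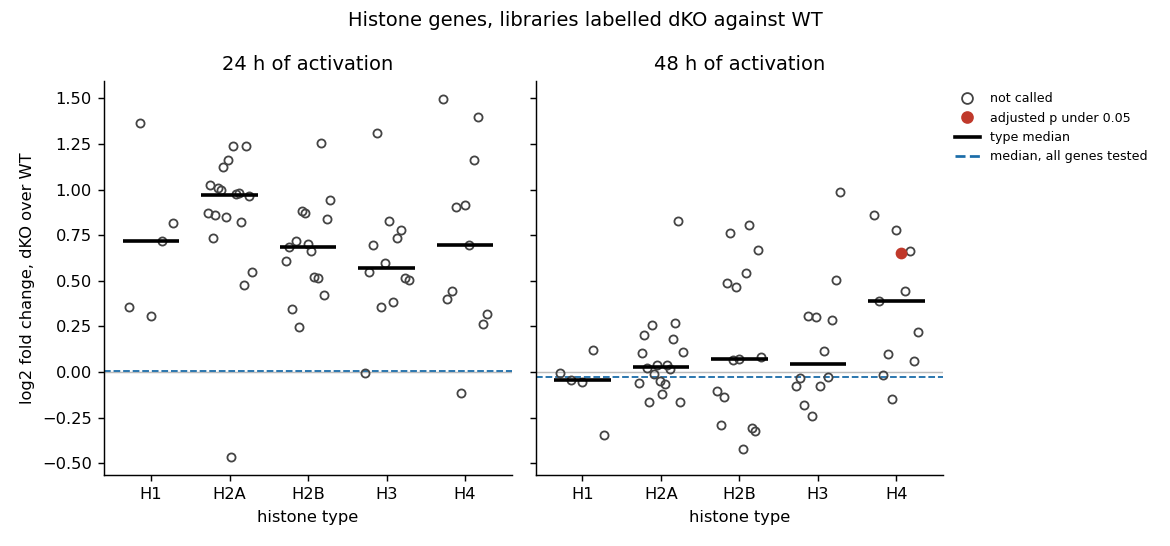
Log2 fold change of dKO over WT (vertical axis) at 24 h and at 48 h for each tested histone gene by type (horizontal axis), with a black line at the type median, a dashed line at the median of all genes tested and filled points for an edgeR adjusted p under 0.05. At 24 h 58 of 61 genes sit above 0 with none called, and at 48 h the genes sit around 0 with 1 called, Hist1h4i.

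At 48 h the members lay on both sides of 0, with 36 positive and 25 negative and a median log2 fold change of 0.07, against -0.03 over all genes tested. Hist1h4i was called higher and no member lower, where 3.19% of all genes were called higher and 8.04% lower. At an unadjusted p of 0.05, 3 members (4.92%) were higher and 0 lower, and the share of all genes at that threshold was not computed. DESeq2 called 0 members, where it called 2.36% of all genes higher and 6.74% lower. The type medians were 0.39 for H4, 0.07 for H2B, 0.05 for H3, 0.03 for H2A and -0.04 for H1. The 48 h result rested on the WT 48 h libraries. Without replicate 1 the median was 0.88 for H2A and -0.28 for H1, and 15 members were called higher and 1 lower, where 23.3% of all genes were called higher and 25.9% lower. Without replicate 2 the median was -0.55 for H2A and 0.31 for H1, and 0 were called higher and 9 lower, where 2.22% of all genes were called higher and 6.56% lower.

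Hist1h4i, the most abundant H4 transcript here, was higher in dKO than in WT at both times. It was at 7.31 and 6.17 CPM in WT 24 h, 11.7 and 10.0 CPM in dKO 24 h, 10.8 and 9.80 CPM in WT 48 h and 15.9 and 16.1 CPM in dKO 48 h. The groups did not overlap at either time, and the WT 48 h libraries were close to each other for this gene. The log2 fold change was 0.65 at 48 h (SE 0.182, edgeR adjusted p = 0.0481) and 0.70 at 24 h (SE 0.2, adjusted p = 0.28). The call at 48 h was narrow: DESeq2 gave an adjusted p of 0.163, the fit with the replicate number as a block 0.0573, and leaving out any 1 library other than WT 48 h replicate 1 gave 0.0756 to 0.262.

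Averaged over both times, 3 members were called higher in dKO and none lower, where 2.28% of all genes were called higher and 5.52% lower. The 3 were Hist1h4i, with a log2 fold change of 0.67 (SE 0.135, edgeR adjusted p = 0.0244), Hist1h4a, with 1.178 (SE 0.25, adjusted p = 0.0267), and Hist1h3d, with 0.81 (SE 0.214, adjusted p = 0.0487). Hist1h4a was at 1.37 and 1.26 CPM in WT 48 h and 2.68 and 2.08 CPM in dKO 48 h, so its dKO libraries lay above its WT libraries at both times. The median over members was 0.45, against -0.01 over all genes, and 17 members were higher and 0 lower at an unadjusted p of 0.05, where 12.4% of all genes were higher. The count called depended on single libraries: it was 27 without WT 48 h replicate 1 (20.3% of all genes), 8 without WT 48 h replicate 2 (4.29% of all genes) and 0 without any 1 of the other 6 libraries. DESeq2 called 1 member higher and the fit with the replicate number as a block 2, where 1.81% and 2.11% of all genes were called higher.

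The difference between the genotype effects at the 2 times was tested as an interaction (the effect at 48 h minus that at 24 h). No member was called in either direction, and no gene of the whole table was (0% in both directions). For 56 of 61 members the interaction was negative, with a median of -0.63 against -0.04 over all genes tested. At an unadjusted p of 0.05, 7 members (11.5%) were lower, close to the 8.94% of all genes, 0 were higher, and DESeq2 called 0. The smallest p-values belonged to Hist1h1e, at -1.16 (SE 0.294, edgeR adjusted p = 0.369), Hist1h2af, an H2A gene, at -1.17 (SE 0.371), and Hist1h2bn, an H2B gene, at -1.56 (SE 0.53). Without WT 48 h replicate 1, 5 members were called lower, where 14.5% of all genes were, and without WT 48 h replicate 2, 12 members were, where 0.159% of all genes were. The 24 h and 48 h genotype effects are therefore given side by side, without a statement that they differ for any single member.

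Within WT cells the medians of the histone types differed in sign between 24 and 48 h, a difference between types that was not tested. H1 and H2A genes were on the side of higher levels at 48 h, with median log2 fold changes of 0.76 and 0.96, H4 genes were at 0.17, and H2B and H3 genes were at -0.24 and -0.26, against 0.00 over all genes tested. In all, 3 members (4.92%) were called higher and 1 (1.64%) lower, where 7.87% of all genes were called higher and 3.5% lower. Counts this small are close to those shares. The H2A median rested on WT 48 h replicate 1: it was 0.08 without that library and 1.57 without replicate 2. Summed H2A was 236.8 CPM in replicate 2 and 683.7 CPM in replicate 1, against 230.9 and 205.2 CPM at 24 h. The medians of H1, H2B and H3 kept their sign without either library. Scaling by library size alone, which moved the median of all genes to -0.36, moved the median over all members from 0.06 to -0.29, so the sign of that median depended on the scaling.

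The 3 members called higher in WT were Hist1h2af, Hist1h1e and Hist1h1b. Hist1h2af was at 11.7 and 9.11 CPM at 24 h and 34.9 and 19.7 CPM at 48 h, with a log2 fold change of 1.36 (SE 0.268, edgeR adjusted p = 0.0094). Hist1h1e rose from 13.9 and 13.7 CPM to 21.4 and 32.2 CPM, by 0.98 on the log2 scale (SE 0.209, adjusted p = 0.0139). Hist1h1b, an H1 gene, rose from 2.39 and 2.64 CPM to 3.93 and 8.74 CPM, by 1.43 (SE 0.367, adjusted p = 0.0334). The times did not overlap for any of the 3, and the 48 h libraries were further apart than the 24 h libraries for each. No member was called higher without WT 24 h replicate 1 or without WT 24 h replicate 2, whereas 16 were called without WT 48 h replicate 2 (13.6% of all genes), 5 without WT 48 h replicate 1 (17.2%), 7 by DESeq2 (6.73%), and 0 in the fit of the 4 WT libraries. Hist1h1b lost its call without any 1 library other than WT 48 h replicate 1 (adjusted p 0.0626 to 0.242), and its log2 fold change was 0.63 without WT 48 h replicate 2.

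Hist1h3a, the H3 gene whose genotypes overlapped at 24 h, fell between 24 and 48 h in both genotypes. It was at 16.4 and 14.0 CPM in WT 24 h and at 5.81 and 6.16 CPM in WT 48 h, and at 14.4 and 15.99 CPM in dKO 24 h and 6.55 and 4.94 CPM in dKO 48 h. All 4 libraries of 24 h lay above all 4 libraries of 48 h. The log2 fold change was -1.33 in WT (SE 0.205, edgeR adjusted p = 0.00266) and -1.40 in dKO (SE 0.214, adjusted p = 0.00857). In WT it was called under every alternative except the fit of the 4 WT libraries (adjusted p = 0.0657), and in dKO it lost its call when any 1 dKO library was left out (adjusted p 0.0689 to 0.146).

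In dKO cells H3 and H2B transcripts were lower at 48 h than at 24 h, while the H2A median stayed near 0. Summed H2A was somewhat higher at 48 h, at 457.8 and 466.3 CPM against 399.8 and 440.9 CPM at 24 h. The median log2 fold change was -0.78 for H3 and -0.77 for H2B, -0.27 for H4, -0.09 for H1 and 0.10 for H2A, against -0.01 over all genes tested. Of the 61 members, 4 were called lower (3 H3 and 1 H2B) and 0 higher, where 1.88% of all genes were called lower and 1.76% higher. At an unadjusted p of 0.05, 14 members (23.0%, 8 of them H3 and 6 H2B) were lower and 1 was higher, where 12.2% of all genes were lower. DESeq2 called 2 lower and 0 higher, where it called 1.99% of all genes lower and 2.88% higher. In the fit of the 4 dKO libraries, which called 19.6% of all genes higher, Hist1h2ao was called higher (log2 fold change 0.28, SE 0.0967, edgeR adjusted p = 0.0174). In 27 members (44.3%) both 48 h libraries lay below both 24 h libraries, against 33.5% of all genes tested, and these were 12 of 15 H2B, 9 of 12 H3, 4 of 11 H4, 1 of 5 H1 and 1 of 18 H2A genes.

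The other members called lower in dKO were the H3 genes Hist1h3e and Hist1h3g and the H2B gene Hist1h2br. Hist1h3e fell from 8.10 and 8.74 CPM to 3.57 and 3.64 CPM, a log2 fold change of -1.21 (SE 0.245, edgeR adjusted p = 0.0287). Hist1h3g fell from 9.19 and 10.6 CPM to 3.28 and 4.55 CPM (log2 fold change -1.32, SE 0.297, adjusted p = 0.0442). Hist1h2br fell from 6.45 and 7.44 CPM to 3.13 and 2.60 CPM (log2 fold change -1.27, SE 0.297, adjusted p = 0.0496), and its sequence is shared with other H2B genes over 88.7% of its 50-base stretches. The times did not overlap for any of these genes. Hist1h3g also lost its call without WT 24 h replicate 1 or 2 (adjusted p = 0.0664 and 0.0679) and Hist1h2br without WT 24 h replicate 1 (adjusted p = 0.0505). Leaving out any 1 dKO library left no member called, whereas leaving out either WT 48 h library gave 11 called lower (4 H2B and 7 H3), where 11.6% of all genes were called lower, and the fit of the 4 dKO libraries gave 15 lower (6 H2B and 9 H3) and 2 higher, where 17.7% of all genes were called lower and 19.6% higher.

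**Figure D4:**
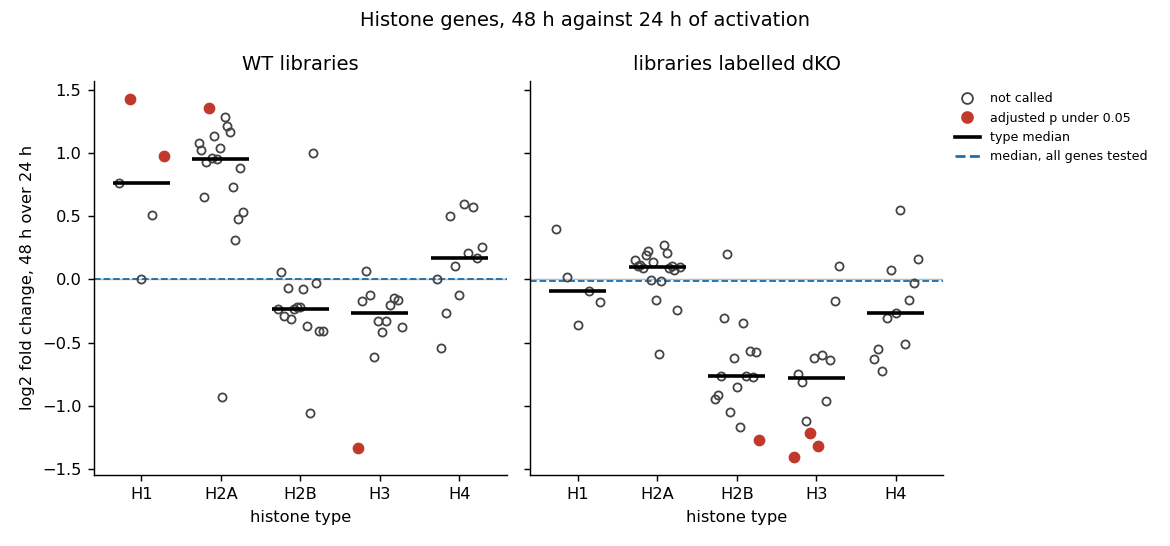
Log2 fold change of 48 h over 24 h (vertical axis) in WT and in dKO libraries for each tested histone gene by type (horizontal axis), with a black line at the type median, a dashed line at the median of all genes tested and filled points for an edgeR adjusted p under 0.05. The medians of H2B and H3 genes lie below that of H2A genes in both panels, at -0.24 and -0.26 in WT and -0.77 and -0.78 in dKO, while single genes overlap.

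The H2A genes were compared over time with their head-to-head H2B neighbours, whose starts are close to theirs. In 10 pairs both genes were tested. The log2 fold change of 48 h over 24 h was higher for the H2A than for the H2B gene in 10 of 10 pairs in WT, by a median of 1.26 (range 0.05 to 1.62), and in 9 of 10 pairs in dKO, by a median of 0.86 (range -0.08 to 1.48). The size in WT rested on WT 48 h replicate 1 (an alternative chosen after seeing the data): without it the H2A gene was higher in 9 of 10 pairs by a median of 0.35 (range -0.75 to 0.89), and without replicate 2 in 10 of 10 by 1.82. For Hist1h2ag, whose window is printed above, the change was 0.96 in WT and 0.22 in dKO, and for its neighbour Hist1h2bj it was -0.22 and -0.85. Hist1h2ag was at 25.3 and 22.9 CPM in WT 24 h and at 72.95 and 23.4 CPM in WT 48 h, and its change in WT was -0.03 without WT 48 h replicate 1. In the genotype comparison at 24 h the H2A gene was above the H2B gene in 8 of 10 pairs, by a median of 0.31. These differences between genes are descriptions and were not tested, and H2A genes share reads with each other.

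**Figure D5:**
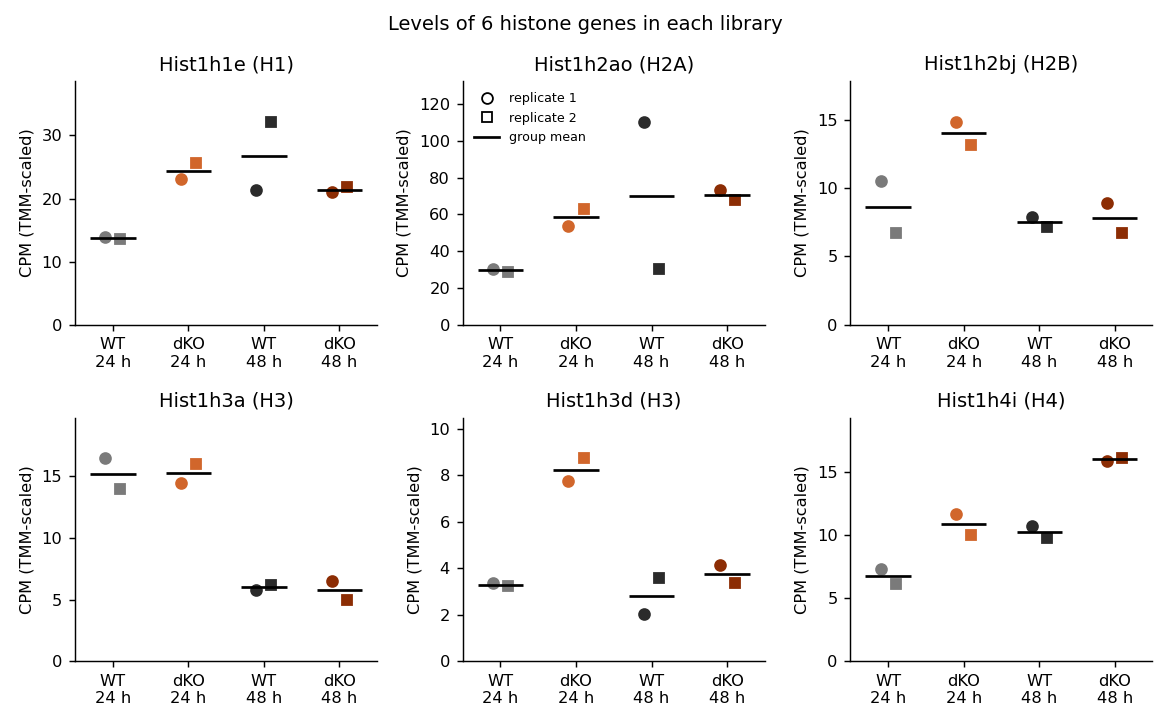
CPM (TMM-scaled, vertical axis from 0) of 6 histone genes in each library of the 4 groups (horizontal axis), with a line at the group mean. Hist1h3a is lower at 48 h in both genotypes, Hist1h4i is higher in dKO at both times, and Hist1h2ao differs between the WT 48 h libraries (110.5 and 30.1).

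Some cluster genes have been reported to give polyadenylated transcripts as well, and 4 of these were followed by name. Hist1h1c, an H1 gene, was at 9.70 and 8.52 CPM in WT 24 h, 12.9 and 9.29 in dKO 24 h, 7.18 and 10.5 in WT 48 h and 6.10 and 11.3 in dKO 48 h, so its groups overlapped. Hist1h2bc, an H2B gene, was at 5.06 and 3.53 CPM in WT 24 h, 7.001 and 3.53 in dKO 24 h, 3.25 and 3.69 in WT 48 h and 3.72 and 2.73 in dKO 48 h, and also overlapped between genotypes. Hist1h2ac, its H2A neighbour, was at 17.4 and 15.6 CPM in WT 24 h, 31.6 and 35.7 in dKO 24 h, 53.0 and 16.7 in WT 48 h and 37.4 and 34.8 in dKO 48 h, which is the pattern of the H2A sums. Hist2h2be, an H2B gene, had between 4 and 13 counts in a library and was not tested.

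Genes that make, process and load histones were followed with lists chosen for their function, with earlier results of these data known. Of 29 histone mRNA processing genes none was called at 24 h between genotypes, at a median log2 fold change of 0.10, with 0 at an unadjusted p of 0.05 in either direction. Slbp, the stem-loop binding protein, was at 145 and 172 CPM in WT 24 h and 162 and 162 CPM in dKO 24 h, and at 182 and 134 CPM in WT 48 h and 192 and 197 CPM in dKO 48 h. Its groups overlapped at 24 h, and no comparison called it. Npat, the activator of histone transcription, was at 37.0 and 38.0 CPM in WT 24 h and 38.9 and 39.4 in dKO 24 h, and at 30.6 and 55.3 in WT 48 h and 26.9 and 28.7 in dKO 48 h, and was not called either. At 48 h, 3 processing genes were called higher in dKO (Lsm1, Lsm10 and Snrpb) and 2 lower (Ccne1 and Ncbp1). Among all genes 3.19% were called higher and 8.04% lower. In the fit of the 4 libraries of 48 h, Lsm1, Lsm10, Snrpb and Ncbp1 lost these calls (edgeR adjusted p 0.0819 to 0.144). Lsm10 also lost its call under DESeq2 (adjusted p = 0.0733). Ccne1, which encodes cyclin E1, was at 491 and 525 CPM in WT 48 h and 290 and 284 CPM in dKO 48 h, with no overlap and a log2 fold change of -0.83 (SE 0.18, edgeR adjusted p = 0.0199), and it rose between 24 and 48 h in WT by 1.17 (SE 0.181, adjusted p = 0.00273). The call of Ccne1 between genotypes was lost without any 1 of the 4 dKO libraries. Its rise in WT stayed called with each of the 8 libraries left out in turn. That rise was not called in the fit of the 4 WT libraries (edgeR adjusted p = 0.0718).

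Among 40 DNA replication genes none was called between genotypes at 24 h, at a median log2 fold change of 0.08, and 3 were on the higher side with an unadjusted p under 0.05 and 0 on the lower. In the fit of the 4 libraries of 24 h, 0 of the 96 tested genes of the 4 function lists given here were called. Among all genes 1.05% were called higher and 0.444% lower in that fit, so 0 of 96 is close to the share of all genes. The 15 histone cluster genes called there were mostly H2A genes, which share sequence with each other. At 48 h 2 DNA replication genes were called higher, Rfc3, a subunit of the clamp loader, and Tk1, the thymidine kinase of dividing cells. Cdt1, a licensing factor, was the 1 called lower. Among all genes 3.19% were called higher and 8.04% lower at 48 h. Rfc3, Tk1 and Cdt1 lost these calls in the fit of the 4 libraries of 48 h (edgeR adjusted p 0.0551 to 0.167). Tk1 was at 51.6 and 51.0 CPM in WT 24 h, 63.1 and 63.6 in dKO 24 h, 82.2 and 63.7 in WT 48 h and 108 and 108 in dKO 48 h, and its log2 fold change at 48 h was 0.57 (SE 0.151, edgeR adjusted p = 0.0411), a call that was kept in 1 of the 8 fits with a library left out, the fit without WT 48 h replicate 1. Without that library 38 genes of the 4 lists were called higher at 48 h and 24 lower, where 23.3% of all genes were called higher and 25.9% lower, against 6 and 5 with all libraries, and without either dKO 48 h library 0 were. Of 18 histone chaperones none was called in a genotype comparison. Chaf1b, a subunit of the chromatin assembly factor that follows the replication fork, was the 1 called over time in WT. It fell by 0.77 on the log2 scale (SE 0.166, edgeR adjusted p = 0.0147), where 3.5% of all genes were called lower. The call was lost without WT 24 h replicate 2, and also in the fit of the 4 WT libraries (edgeR adjusted p = 0.118 in that fit).

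Histone variants whose symbols do not follow the cluster naming were listed separately, with 10 of 11 tested. Between 24 and 48 h, 4 were called higher in WT (Cenpa, H1f0, H1fx and H2afx) and 2 in dKO (Cenpa and H1f0), and none lower. Among all genes 7.87% were called higher and 3.5% lower in WT, and 1.76% and 1.88% in dKO. Among 10 genes, none called lower is close to those shares. H1f0 lost its call in dKO without any 1 of the 4 dKO libraries (adjusted p up to 0.0695), and H1f0, H1fx and H2afx lost theirs in the fit of the 4 WT libraries (adjusted p up to 0.0661). Cenpa, the centromeric H3 variant, went from 26.1 and 32.0 CPM to 195 and 125 CPM in WT and from 42.7 and 40.0 to 225 and 244 CPM in dKO, log2 fold changes of 2.45 (SE 0.224, edgeR adjusted p = 0.00076) and 2.50 in the same order (SE 0.221, adjusted p = 0.000948), and it stayed called under all 15 alternatives in each genotype. After 48 h H1f0, a linker histone variant of slowly dividing cells, was called higher in dKO, at 14.2 and 12.2 CPM in WT and 23.2 and 22.7 CPM in dKO, by 0.82 (SE 0.177, adjusted p = 0.0196). H1fx, another linker histone variant, was called lower, at 342 and 397 CPM in WT and 170 and 157 CPM in dKO, by -1.176 on the log2 scale (SE 0.196, adjusted p = 0.0147), and H2afx was also called lower. Among all genes 3.19% were called higher and 8.04% lower at 48 h. H1f0, H1fx and H2afx lost these calls without either dKO 48 h library, and H2afx also without either dKO 24 h library. In the fit of the 4 libraries of 48 h, H1f0 and H2afx were not called (edgeR adjusted p = 0.0988 and 0.0562). H1f0 also lost its call under DESeq2 (adjusted p = 0.0536). At 24 h no variant was called between genotypes.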

How the data were processed

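RNA from 8 libraries of mouse CD8+ T cells in 4 groups was measured by bulk sequencing. The table the authors deposited holds raw counts, as whole numbers, with genes in rows and libraries in columns. Tools named in the submitters' processing notes are cutadapt 1.18 (adapter trimming) and Bowtie2 2.2.5 (alignment), with the genome build mm10. No source used here gives the counting program, its annotation, strand rule, library kit or treatment of reads that fit several genes. The 1 unnamed row, which repeats each library's total, was left out.

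Counts were fitted with edgeR 4.0.16 in R 4.3.3 (filterByExpr with a minimum count of 10, TMM scaling, 1 mean per group over 8 libraries, quasi-likelihood test, two-sided, Benjamini-Hochberg over 12742 genes, called under 0.05). Standard errors are the log2 fold change divided by the square root of F. CPM of members are TMM-scaled, and CPM of library checks and marker lists are over total counts. The method was tested on simulated data. Replicates of each group differed beyond sampling noise and were kept apart. Alternatives were RLE scaling, library size alone, no filter, a mean of at least 50 counts, DESeq2 1.42.0, a replicate block, the 4 compared libraries alone, and each library left out. Same-numbered libraries deviated together with r of -0.09 to 0.192, so the numbers were not taken as pairs.

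The members and lists were chosen with earlier results of these data known. Named are the 3 leading members by mean CPM in each type, the members called in each comparison (or the 3 of smallest p where none was), 4 members reported to be polyadenylated, Slbp, Npat and up to 3 genes of smallest p in each list; Lsm10, Snrpb and other called genes of a list were added after their values were seen. Members were matched by symbol to GENCODE M21 and by synonym and place to RefSeq (69 of 69). A planned comparison of protein sequences was not run.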

Additional observations from a re-analysis of the deposited data

How the results depend on the processing

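Where the wording is "called", the values below are numbers of members called higher or lower at an adjusted p of 0.05. At 24 h the number called higher in dKO was 14 with no filter on low counts and 15 with the 4 compared libraries, and 0 to 16 with 1 library left out. At 48 h it was 2 with library size alone and 0 with a mean of at least 50 counts, DESeq2, the replicate block or the 4 libraries, and 0 to 15 with 1 library left out, with 0 to 9 called lower. Over both times it was 17 with no filter, 1 with a mean of at least 50 counts, 1 with DESeq2, 2 with the replicate block, and 0 to 27 with 1 library left out. The interaction called 4 lower with no filter and 0 to 12 with 1 library left out. Over time in WT, 1 member was called higher with library size alone, 14 with no filter, 7 with DESeq2 and 0 with the 4 libraries, and 0 to 16 with 1 library left out, while 3 were called lower with library size alone and 0 with the 4 libraries. Over time in dKO, 2 were called higher with the 4 libraries and 0 to 1 with 1 library left out, and the number called lower was 10 with library size alone, 9 with no filter, 1 with a mean of at least 50 counts, 2 with DESeq2, 2 with the replicate block and 15 with the 4 libraries, and 0 to 11 with 1 library left out. A filter at a mean of 50 counts left 26 members tested, and the fit with no filter tested all 69. The share of all genes called moved with the setting too, so these counts are not shifts of the members alone. With library size alone 12.7% were called higher at 48 h, 20.7% lower over time in WT and 4.68% lower in dKO. With no filter 3.16% were called higher over both times and 6.13% over time in WT. With the 4 libraries 0.219% were called higher over time in WT and 17.7% lower in dKO.

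The median log2 fold change over members moved to 0.24 (48 h genotype), -0.46 (interaction), -0.29 (time in WT) and -0.48 (time in dKO) with library size alone, which moved the median of all genes to 0.15, 0.15, -0.36 and -0.18, and to -0.84, 0.83 and -0.024 (interaction, time in WT and time in dKO) with a mean of at least 50 counts. With 1 library left out it ranged from 0.66 to 0.87 (24 h genotype), -0.016 to 0.32 (48 h genotype), 0.24 to 0.51 (both times), -0.72 to -0.35 (interaction), -0.092 to 0.22 (time in WT) and -0.40 to -0.21 (time in dKO). Leaving out WT 48 h replicate 1 or 2 (chosen after seeing the data) moved the 48 h genotype value of the leading H2A genes from 0.04 to 1.21 or -0.64 (Hist1h2ao), from 0.02 to 1.09 or -0.63 (Hist1h2ap) and from 0.26 to 1.24 or -0.37 (Hist1h2ag). The sign also changed for Hist1h3a at 24 h, to 0.12 without WT 24 h replicate 1 and to 0.07 without dKO 24 h replicate 1, from a value near 0, and ranged from -0.132 to 0.12 with 1 library left out. The histone share of counts was 0.0409%, 0.0716% and 0.0667% in WT 24 h, dKO 24 h and dKO 48 h with TMM-scaled library sizes, and 0.0367%, 0.0636% and 0.0520% without the leading member of each type. Over the 4 function lists (alternatives chosen after seeing the data), genes called higher and lower at 48 h numbered 16 higher with library size alone, 11 and 10 with no filter, 3 higher with DESeq2 and 0 and 2 with the 4 libraries, and 0 to 38 and 0 to 24 with 1 library left out. At 24 h, 0 to 1 were called higher with 1 library left out. Over time in WT, 1 was called higher with the 4 libraries and 6 to 19 with 1 library left out, and 32, 2, 1, 2 and 0 were called lower with library size alone, no filter, DESeq2, the replicate block and the 4 libraries, and 0 to 24 with 1 library left out. Over time in dKO, 5 were called higher and 3 lower with no filter, 20 and 26 with the 4 libraries, 1 lower with library size alone, and 1 to 14 and 0 to 15 with 1 library left out. The shares of all genes called moved as well. At 48 h with no filter 4.09% were called higher and 8.8% lower, and with library size alone 12.7% higher. Over time in WT 20.7% were called lower with library size alone. Over time in dKO 3.83% were called higher and 3.35% lower with no filter, and 19.6% and 17.7% with the 4 libraries. The cause of these shifts was not tested, except that fewer or more genes enter the fit where the filter changes.

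The replicate block moved the counts given above and no other count by over 1.5 times, and the numbers were not found to pair the libraries. With 1 library left out of a group, the lone library is assumed to vary like the other groups. Precision was limited by 2 libraries per group, of 5000952 to 21686236 counts each.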
